A study of Homo sapiens with 10 samples.

Results

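SP100, SP110, SP140 and SP140L are the 4 human genes of the SP100 family. They were found in the deposited tables as the protein-coding rows that carry these symbols, 1 row for each gene in each table, so that 4 of the 60603 rows, and of the 19975 protein-coding rows, are described here. The measurements were made by mRNA-seq in NB4, an established acute promyelocytic leukemia line in which PML, the organizer of PML nuclear bodies, is fused to RARA. In the GSE1 knockdown experiment, the groups are EV, shA1 and shB2, collected 48 h after lentiviral transduction. EV received pLKO.1 puro without insert, while shA1 and shB2 received it with a hairpin against GSE1. EV thus holds no hairpin of any kind, and the cells of all 3 groups were transduced. In the LSD1 inhibition experiment, cells that were not transduced were treated for 24 h with DMSO, the solvent control, or with the LSD1 inhibitor MC2580 at 2 µM. Each of the 5 groups has 2 libraries.

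The tables hold 1 level per gene and experiment that is not a comparison made by the authors: the base mean, which is the authors' average of the normalised counts over all 6 libraries of the knockdown or over all 4 of the inhibition. Values per library or per group were not analysed here, so no error, replicate spread or test can be given for a level, and whether GSE1 knockdown or MC2580 changed these genes was not asked of the data. The values describe how much RNA each family member contributed in each experiment as a whole. In RNA from bulk cells, fewer cells that express a gene and less RNA per cell cannot be told apart.

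SP100 proteins are chromatin-associated proteins, several of which accumulate in PML nuclear bodies, the SUMO-rich foci that PML organizes in the nucleus. The family shares an N-terminal domain used for self-association and a DNA-binding SAND domain, which not every isoform holds. SP110, SP140, SP140L and some isoforms of SP100 also end in a PHD finger and a bromodomain, modules that read histone modifications. The genes are known as interferon-induced genes of leukocytes, with roles in intrinsic defence against viruses and intracellular bacteria.

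The 4 genes lie side by side on chromosome 2 of GRCh38, within 380 kb from 230165186 to 230545606 in GENCODE release 44. SP110 (ENSG00000135899.17) is on the minus strand from 230165186 to 230225729. SP140 (ENSG00000079263.19) runs on the plus strand from 230203110 to 230313215, SP140L (ENSG00000185404.16) from 230327184 to 230403732, and SP100 (ENSG00000067066.17) from 230415942 to 230545606. SP110 and SP140 are therefore read away from each other, and transcripts annotated upstream of the main SP140 start make the spans of both genes overlap by 22.6 kb. No other protein-coding gene is annotated between the members. The nearest protein-coding neighbours are SLC16A14, a monocarboxylate transporter family gene on the SP110 side, and CAB39, a scaffold of the LKB1 kinase complex on the SP100 side.

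The start regions of the members are shown because 2 pairs of them are made of the same or nearly the same sequence. In RefSeq (GRCh38.p14), the promoter windows reach from 250 bases before to 50 bases after each start, and the 4 genes have 6 such windows, with 2 each for SP100 and SP110. The first SP110 window (chr2:230225587-230225886) and the SP140 window (chr2:230225486-230225785) overlap by 199 bases, and their start sites are 100 bases apart, so that both genes start from the same stretch of DNA. The SP140L window (chr2:230326943-230327242) and the first SP100 window (chr2:230415951-230416250) are near copies, identical at 251 of 272 aligned bases (92.3%). Over the first window of each gene, the longest runs found in all 4 are 8 letters long, AAGTGAAA and GGAAAAGA. They stand next to each other. Each line below gives 30 bases read on the strand that spells AAGTGAAA, with these letters in capitals.
SP110, first window, and SP140 (the same bases, chr2:230225715-230225744, minus strand): gaggaaaagaaAAGTGAAAttgcctaacta
SP140L (chr2:230327095-230327124, minus strand): ggggaaaagaaAAGTGAAAgtatttattta
SP100, first window (chr2:230416126-230416155, minus strand): ggggaaaagagAAGTGAAAgtatttaacct
SP110, second window (chr2:230220017-230220046, plus strand): cgagaaaagaaAAGTGAAAgttttcggagt

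The centre of the capitals lies 6 bases before the SP140 start, 60 before the first SP100 start, 83 before the SP140L start, and 93 and 47 bases before the first and second SP110 starts. These are RefSeq starts. The GENCODE spans given above begin further upstream, with SP100 at 230415942 and SP110 at 230225729. The letters of SP100 and SP140 therefore lie inside the GENCODE spans of these genes, and those of the first SP110 window lie at the start of its span. AAGTGAAA fits AANNGAAA, the core letters that interferon regulatory factors bind. On either strand, AANNGAAA is in 5 of the 6 member windows and in 22.8% of all 35116 RefSeq windows, and AAGTGAAA is in the same 5 windows and in 1.62% of all. Both were chosen after the member windows had been read, and AAGTGAAA because the first windows of all members share it. Its presence in those windows was thus fixed beforehand, and 5 of 6 beside 1.62% is no measure of enrichment. The matches are also not separate, since the first SP110 window and the SP140 window hold the same bases. The second SP100 window holds neither AANNGAAA nor AAGTGAAA. The interferon-response letters GAAANNGAA are in 0 of the 6 windows, against 8.11% of all windows, and the same letters with a further A at their end are also in 0, against 3.57%. TTCNNNGAA, the letters of a gamma-activated site, is in 1 member window, the second of SP110, and in 7.66% of all windows. A match describes letters and is not a measured site, and a missing match says only that these letters are absent from the window.

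SP100, the founding member and a constitutive component of PML nuclear bodies, gave the most normalised counts of the family in both experiments. The authors' base mean of SP100 was 3449 in the GSE1 knockdown and 2339 in the LSD1 inhibition. These values placed it at percentile 84.4 and 78.5 of the protein-coding genes with a base mean above 0, of which there were 17337 and 17091. The median base mean of those genes was 409 and 396.

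SP110, a nuclear body protein whose loss causes hepatic veno-occlusive disease with immunodeficiency, followed closely. Its base mean was 3028 in the knockdown and 2077 in the inhibition, at percentiles 82.4 and 76.4. Per kilobase of the longest transcript, SP100 exceeded SP110 by 1.30 times in the knockdown and by 1.29 times in the inhibition. Without values per library it cannot be said whether a difference of this size is larger than the spread between libraries.

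SP140L, a paralog of SP140 whose function is little known, had a base mean of 1483 in the knockdown and 1232 in the inhibition. It stood at percentiles 69.3 and 66.8, above the median protein-coding gene in both tables. Per kilobase of the longest transcript, the level of SP100 was 1.32 times that of SP140L in the knockdown and 1.08 times in the inhibition. The longest SP140L transcript is annotated as a retained intron, and with its longest protein-coding transcript these ratios were 1.14 and 0.932, so that SP140L was the higher of the pair in the inhibition.

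SP140, a reader of chromatin best known from B cells and macrophages, was far below its relatives. Its base mean was 60.1 in the knockdown and 120 in the inhibition, at percentiles 36.5 and 40.3. A base mean bounds what any group can hold, since normalised counts are never negative. In the knockdown no group of 2 libraries can have averaged more than 180 for SP140 and no single library can have held more than 360, and in the inhibition these bounds are 240 and 480. Per kilobase of the longest transcript, the bounds on a library are 111 and 148, below the average of each other member in the same table. This depends on the length used. With the median transcript length, the level of SP140L was 9.04 times that of SP140 in the knockdown and 3.75 times in the inhibition. With 4 libraries in the inhibition, the bound on a library is then not below the average of SP140L.

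The first SP110 start and the SP140 start of RefSeq lie 100 bases apart and point in opposite directions. Per kilobase of the longest transcript, the 2 genes differed by 26.4 times in the knockdown and by 9.06 times in the inhibition. These are levels of whole genes. Both genes also have other annotated starts, and which of them NB4 cells used was not analysed here. SP100 and SP140L, whose start regions are near copies of each other, had the ratios of 1.32 and 1.08, or 1.14 and 0.932, given above. Other lengths set them further apart in the knockdown and the inhibition. The ratios were 1.52 and 1.24 with the longest coding part and 2.26 and 1.85 with the median transcript length. Without division by length they were 2.33 and 1.90. The common start region and the copied one are descriptions of sequence, and their part in the levels was not tested.

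Together the 4 genes contributed a base mean of 8020 in the knockdown and 5767 in the inhibition. SP100 made up 43.0% and 40.6% of this sum, SP110 37.8% and 36.0%, SP140L 18.5% and 21.4%, and SP140 0.749% and 2.08%. SP100 and SP110 thus led these sums in both experiments.

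A longer transcript gives more fragments, which is why levels of different genes were also compared per kilobase. The percentiles, the shares of the family sum and the base means of the flanking genes were not divided by length. The longest annotated transcripts measure 5414 bases for SP100, 6192 for SP110, 3244 for SP140 and 3070 for SP140L. That of SP140L is a retained-intron transcript, and its longest protein-coding one measures 2656 bases, while the longest transcripts of the others are protein-coding. On the scale of base mean per kilobase of the longest transcript, SP100 had 637, SP110 489, SP140L 483 and SP140 18.5 in the knockdown. In the inhibition SP100 had 432, SP140L 401, SP110 335 and SP140 37.0. With the protein-coding transcript, SP140L had 558 in the knockdown and 464 in the inhibition, above SP110 in both tables and above SP100 in the inhibition.

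The choice of transcript decided the order of the 3 well-expressed members. GENCODE lists 19 transcripts for SP100, 21 for SP110, 14 for SP140 and 10 for SP140L, and which of them NB4 cells used was not analysed here. Per kilobase of the longest coding part, SP110 came first with 1416 in the knockdown and 971 in the inhibition, ahead of SP100 with 1299 and 881 and SP140L with 852 and 708. With the median transcript length, SP100 came first with 1914 and 1298. SP140 was last in both tables under each of these lengths, between 18.5 and 187 per kilobase. Its distance to SP110 ranged from 16.7 to 61.3 times in the knockdown and from 5.73 to 21.0 times in the inhibition. The distance of SP140 to SP140L ranged from 9.04 to 36.9 times in the knockdown and from 3.75 to 15.3 times in the inhibition.

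Some reads of the family cannot be assigned with certainty. Of the windows of 50 bases along the longest protein-coding SP140 transcript, 10.9% occur letter for letter in an SP140L transcript, and 13.2% of those of SP140L occur in an SP140 transcript. For windows of 100 bases the shares were 7.54% and 9.15%. No such window of SP100 or SP110 occurs in another member (0% at both lengths). Transcripts of genes outside the family were not searched for these windows. The base mean of SP140 was 0.0405 times that of SP140L in the knockdown and 0.0975 times in the inhibition, and how the authors' counting with RSEM divided the shared reads was not tested. SP110 and SP140 also have 170 exonic bases in common on opposite strands, which is 3.05% of all exonic bases of SP140. The TruSeq RNA v2 kit does not mark strand, and reads from these bases cannot be told apart. Beyond the family, SP110 has 1898 exonic bases in common with the antisense lncRNA AC009950.1, which is 17.8% of all exonic bases of SP110. The base mean of AC009950.1 was 71.0 in the knockdown and 85.7 in the inhibition. SP100 has 544 (3.85% of its exonic bases) in common with the pseudogene HMGB1P3 on its own strand, at 67.2 and 42.4.

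The neighbours outside the cluster had levels of their own. SLC16A14 had a base mean of 137 in the knockdown and 110 in the inhibition, and CAB39 one of 6039 and 3958. The base means of SP100, SP110 and SP140L lay between those of these flanking genes, while that of SP140 was below both in the knockdown and a little above SLC16A14 in the inhibition.

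The tables were normalised separately, so the levels were set side by side as shares of the base means of all genes, in ppm. SP100 had 85.1 ppm in the knockdown table and 56.8 in the inhibition table, a ratio of 0.667. SP110 had 74.7 and 50.4 ppm, a ratio of 0.675. SP140L had 36.6 and 29.9 ppm, a ratio of 0.817. The median ratio over the 12354 protein-coding genes that reached 10 in both tables was 0.940, and the 3 ratios stood at percentiles 15.2, 15.9 and 33.2 among them. SP140 was the member with the larger share in the inhibition table, 2.91 against 1.48 ppm, and its ratio of 1.97 stood at percentile 98.6. The SP140 base means behind this ratio are low, at 60.1 and 120, and the ratio was ranked among genes of all levels from 10 up. The part of reads shared with SP140L in this ratio was not tested. No spread between libraries can be set beside these ratios.

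The experiments differ in transduction, duration, treatment and in which groups enter the average, so what sets these ratios cannot be told apart here. Of the 6 granulocyte lineage markers that reached 10 in both tables, 5 had a ratio above the median of these genes, and CD33, a myeloid surface marker, had the lowest at 0.939. MPO, the myeloperoxidase of primary granules, had a ratio of 1.60, AZU1, the granule protein azurocidin, one of 2.47, and CEBPE, a transcription factor of late granulocyte maturation, one of 2.17. GSE1 had a base mean of 2963 in the knockdown table, where 4 of the 6 libraries carry a hairpin against it, and 4441 in the inhibition table. A base mean over all groups does not show whether GSE1 fell, and the knockdown could not be checked here. KDM1A, which encodes LSD1, had base means of 7648 and 6285.

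Most other genes of PML nuclear bodies had higher levels per kilobase than the family. Of a list of 21, which holds PML and its partners, the SUMO proteins with their conjugating and removing enzymes, and HP1 proteins, all 21 had a higher base mean per kilobase than SP140 in both tables. In the knockdown 12 of the 21 were above SP100, 14 above SP110 and 14 above SP140L on this scale, and in the inhibition 13, 16 and 14. With the longest protein-coding transcript of every gene, 13 were above SP140L in the inhibition, and the other counts were the same. The median of the list was 912 per kilobase in the knockdown and 834 in the inhibition. CBX3, which encodes HP1 gamma, was highest with 6959 and 6155, and SENP1, a SUMO protease, lowest with 193 and 129. PML itself had 1075 and 1046 per kilobase, above each member of the family. In NB4 cells the PML row can hold reads of the fusion transcript as well as of PML, which base means do not separate.

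Among the other SAND domain genes, DEAF1, a transcription factor, was highest per kilobase of the longest transcript with 848 in the knockdown and 856 in the inhibition. On this scale it was above SP100, SP110 and SP140L. This order depends on the length used. Per kilobase of the longest coding part, GMEB2 was highest with 1339 and 1453, and DEAF1 had 1123 and 1133. DEAF1 was then below SP100 (1299) and SP110 (1416) in the knockdown and above both (881 and 971) in the inhibition. With the median transcript length, DEAF1 had 1152 and 1162, below SP100 with 1914 and 1298. AIRE, the regulator of self-antigens in thymic epithelium, was lowest with 0.251 and 0.393 per kilobase of the longest transcript and a base mean of 1.08 and 1.69. SP140 lay between AIRE and the remaining SAND genes. Of the 4 TRIM genes that also end in a PHD finger and a bromodomain, the corepressor TRIM28 had 11221 and 13476 per kilobase, and TRIM66 was lowest with 61.5 and 72.1. Per kilobase of the longest transcript, all 4 exceeded SP140, and 1 of the 4 exceeded SP100.

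Markers of several cell types were measured to check the label of a promyelocytic line. Of 7 granulocyte lineage genes, 6 reached a base mean of 100 in both tables, led by MPO with 506765 and 824818, while ELANE, the neutrophil elastase gene, was near absent at 1.10 and 3.87. Summed base means were 901 and 881 for 3 T cell markers, nearly all of it from CD3D with CD3E at 1.55 and 2.98, and 150 and 147 for 3 B cell markers, with MS4A1 at 0.217 and 0. Erythroid markers summed to 12.7 and 0, megakaryocyte markers to 660 and 549 with PPBP and PF4 at 0, fibroblast markers to 14.6 and 14.7, and epithelial markers to 1490 and 1215. All 3 of the epithelial markers, EPCAM, KRT8 and KRT18, reached 100 in both tables, and KRT18 had a base mean of 906 and 668 beside 723 and 1814 for AZU1. The part of such genes in the levels of the family was not tested. Summed over all genes the base means came to 40543130 in the knockdown and 41201112 in the inhibition, the average normalised total of a library, and the depth of each library is unknown here.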

How the data were processed

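mRNA-seq was performed on 10 libraries of NB4 cells, 2 in each of the groups EV, shA1, shB2, DMSO and MC2580 (MC280 in some titles). Per the labels and methods, libraries were prepared with the TruSeq RNA v2 kit, demultiplexed with bcl2fastq 2, checked with FastQC 0.11.5, mapped to hg38 with STAR 2.7 and quantified with RSEM. The values used are of the unit signal, deposited by the authors as base means: normalised counts from DESeq2, averaged over every library of an experiment. The deposited tables also hold the authors' own log2 fold changes, standard errors, statistics and p-values, which were not used. The base mean stands in the knockdown table once per hairpin, with 0 rows that differ. The count test written for values per library (edgeR in the plan) was not run.

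Levels were computed with Python 3.11.15, pandas 2.3.3 and numpy 2.4.6, promoter alignments with biopython 1.88. Of 60558 gene identifiers, 60261 matched GENCODE release 44 (GRCh38). Promoters come from RefSeq. Motif matches, shared windows, the longest common run and the percentile were checked on constructed data, and transcript lengths were not. Coding lengths came from GENCODE, as no protein sequences were used here. Genes named are the members, GSE1, KDM1A and PML, the highest and lowest of each list, annotated neighbours and markers. AZU1, CEBPE and MPO beside the ratios were named after their values were seen. The members, lists and alternatives were chosen with earlier results of these data known. Alternatives were other lengths, denominators, gene backgrounds and motifs. A further list of transcription factors is not reported here.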

Additional observations from a re-analysis of the deposited data

How the results depend on the processing

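The order of SP100, SP110 and SP140L per kilobase depended on the length used, while SP140 was last under each. In the knockdown, dividing by coding length moved SP110 to rank 1 and SP100 to rank 2. In the inhibition, coding length moved SP110 from rank 3 to 1, SP100 from 1 to 2 and SP140L from 2 to 3, and the median transcript length or no division gave SP110 rank 2 and SP140L rank 3. The longest protein-coding transcript, an alternative added after seeing the data, gave SP140L rank 2 and SP110 rank 3 in the knockdown, and SP140L rank 1 and SP100 rank 2 in the inhibition. The percentiles depended on which genes were ranked. Among protein-coding genes at 10 or more they were 78.5, 75.8, 12.7 and 57.8 for SP100, SP110, SP140 and SP140L in the knockdown and 70.8, 67.9, 19.0 and 54.8 in the inhibition. Among all rows above 0 they were 91.8, 90.8, 63.6 and 83.9 in the knockdown and 88.5, 87.4, 66.0 and 82.2 in the inhibition. Each member's share of the summed base means rose by a factor of 1.02 with protein-coding rows as the denominator, and by 1.04 or 1.05 without mitochondrial genes. The share of promoter windows with a motif was 3.57% for GAAANNGAA with a further A, 8.11% for GAAANNGAA alone and, for letters added after seeing the data, 22.8% for AANNGAAA and 1.62% for AAGTGAAA.

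No paired analysis was possible because the columns used carry no replicate. For the same reason the edgeR fit, DESeq2 as its alternative, the fit with a replicate block and the fits without each replicate were not run, and an error of a level or the depth behind it could not be given. The authors' annotation release is not given in the sources used here.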
